A study of Mus musculus with 18 samples.

Results

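The telomerase RNA Terc and the RNase MRP RNA Rmrp were followed through the germ cells of the mouse testis. They were taken by symbol from a table of 13218 mostly long noncoding loci, in which each of these 2 genes has 1 row. RNA sequencing covered 6 germ cell types from the testes of ICR mice that had been separated by size with STA-PUT sedimentation. The labels priSG-A and priSG-B, commonly read as spermatogonia, came from mice at postnatal days 6 and 9. The labels plpSC and pacSC, commonly read as spermatocytes, came from days 14 and 21, and the labels rST and elST, commonly read as spermatids, from days 35 and 56. Each type had 3 libraries, and the names are not spelled out in the labels. All mice were of the same strain, no treatment is named, and no label says whether the 3 libraries of a type came from separate animals, so the p-values measure only the spread between libraries.

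Terc carries the template from which telomerase, a reverse transcriptase, copies telomere repeats onto chromosome ends, and its other end folds into an H/ACA domain that dyskerin and its partner proteins bind. In rodent testes telomerase activity is known to be high in spermatogonia and lost by the end of spermatid maturation. Rmrp is the RNA of RNase MRP, an RNA-protein enzyme that cuts ribosomal RNA precursors and shares most of its protein subunits with RNase P, and it is made by RNA polymerase III. Neither mature RNA ends in the long poly(A) tail of a messenger RNA, and how well a library kept RNAs without such a tail was not tested.

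Both RNAs are encoded by a single exon on the minus strand. On GRCm38 (mm10), Terc (ENSMUSG00000118406.1 in the table) lies on chromosome 3 from 96414437 to 96414833, which is 397 bp. Rmrp (ENSMUSG00000115420.1) lies on chromosome 4 from 43492783 to 43493063, which is 281 bp. The sequences are shown because the length of both loci and the overlap of Rmrp with a neighbouring gene bear on the values that follow. They were read 5′ to 3′ from the GENCODE M21 transcripts of these coordinates. Of Terc the first and the last 60 bases are given, chr3:96414774-96414833 and chr3:96414437-96414496, with capitals for CTAACCC, bases 3 to 9, which is complementary to the telomere repeat, and for the ACA that stands 3 bases before the 3′ end. In Rmrp the capitals mark bases 41 to 164, which also lie in exons of Ccdc107, a protein-coding gene on the other strand.
Terc, bases 1 to 60: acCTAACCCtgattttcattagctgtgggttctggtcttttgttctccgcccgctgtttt
Terc, bases 338 to 397: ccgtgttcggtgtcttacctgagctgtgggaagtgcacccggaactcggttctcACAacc
Rmrp, chr4:43492783-43493063: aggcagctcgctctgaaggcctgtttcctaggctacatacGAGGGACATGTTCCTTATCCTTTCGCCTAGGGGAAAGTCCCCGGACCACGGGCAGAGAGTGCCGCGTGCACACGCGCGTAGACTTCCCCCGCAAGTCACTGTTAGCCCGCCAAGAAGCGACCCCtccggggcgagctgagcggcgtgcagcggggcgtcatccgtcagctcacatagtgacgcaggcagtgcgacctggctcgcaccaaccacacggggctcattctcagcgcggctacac

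The 124 bases that Rmrp shares with Ccdc107 matter because the sources used here give no strand setting for the libraries (Illumina TruSeq RNA kit). Without a record of strand, reads of the 2 genes cannot be told apart there. In a search of all M21 transcripts on both strands, no other gene shared a 30-base stretch with Rmrp, and none at all shared one with Terc. The GC content was 66.8% for Terc and 63.7% for Rmrp. The M21 model of Terc starts 26 bases further upstream than the row of the table.

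The values are FPKM, fragment counts scaled by transcript length and library depth, as the authors deposited them. Depth was inferred from the steps between low FPKM values and came to 31.6 to 91.9 M fragments per library (M, 1000000). The libraries formed 2 sets. In 6 of them (all of priSG-B, pacSC 1 and 2, elST 3) the inferred fragments averaged 233 to 267 bp and AY036118, a ribosomal RNA-derived locus, stood at 7.25 to 36.2 FPKM. In the other 12 the fragments averaged 200 to 213 bp and AY036118 stood at 1998 to 13911 FPKM. No label names such a split. Of 34 markers of germ and somatic cells, 1 is among the loci of the table, so the labels could be checked only against 1700027A15Rik, which overlaps the spermatid gene Tnp1. In rST it was listed at 0 in replicate 1 and stood at 4539 and 3175 FPKM in the others. In elST its values were 0.570, 875 and 73.0 FPKM, and it also reached 874 FPKM in plpSC replicate 3 and 1195 FPKM in pacSC replicate 3. Of the priSG-A libraries, replicate 3 held 11.8 FPKM of it, against 0.139 and 0 FPKM in replicates 1 and 2. The libraries labelled rST replicate 1 and elST replicate 1 were thus at or near 0 for the locus, while 1 library of each spermatocyte label held 874 FPKM or more. Of the imprinted noncoding RNAs listed beside the markers, H19 stood at 32.7 to 34.8 FPKM in priSG-B and at 0.286 to 234 FPKM elsewhere, and Meg3 at 1.85 to 2.24 FPKM in priSG-B and at 0.389 to 18.9 FPKM elsewhere.

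Terc was highest in priSG-B, where its 3 libraries held 491, 392 and 524 FPKM, a mean of 469 ± 68.5 (SD, n = 3). In priSG-A it stood at 12.8, 77.5 and 17.2 FPKM, and in plpSC at 8.83, 97.8 and 2.23 FPKM. Among the pacSC libraries the values were 34.8, 43.9 and 0.320 FPKM, among those of rST 52.4, 1.32 and 0 FPKM, and among those of elST 83.0, 2.55 and 37.9 FPKM. Every priSG-B library thus lay above each of the other 15, and the other 5 types overlapped one another. By the median the order was priSG-B, elST, pacSC, priSG-A, plpSC and rST, at 491, 37.9, 34.8, 17.2, 8.83 and 1.32 FPKM, and below priSG-B no neighbours in that order were apart.

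The low Terc values rest on few fragments. With the inferred depth and fragment length, the value in pacSC replicate 3 corresponds to 2 fragments, that in rST replicate 2 to 12, that in plpSC replicate 3 to 18 and that in elST replicate 2 to 20. The priSG-B values correspond to 5643, 5909 and 7304 fragments. In rST replicate 3 Terc is listed at 0, which at that depth allows up to 0.450 FPKM (3 fragments, counting error only).

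Rmrp was among the most abundant loci of the table in most libraries. The priSG-A libraries held 5423, 54480 and 15181 FPKM of it, the plpSC libraries 5695, 65601 and 2188 FPKM, and the pacSC libraries 51841, 66814 and 493 FPKM. The rST libraries held 36309, 1417 and 253 FPKM and the elST libraries 57030, 2855 and 55398 FPKM. It is listed at exactly 0 in all 3 priSG-B libraries. Outside priSG-B it ranked first of all loci in 4 of 15 libraries and among the first 3 in 12, its lowest rank was 33, and it took 0.389 to 53.9% of the summed FPKM of the table. By the median the order was elST (55398 FPKM), pacSC (51841), priSG-A (15181), plpSC (5695) and rST (1417), types that all overlapped, followed by priSG-B.

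**Figure D1:**
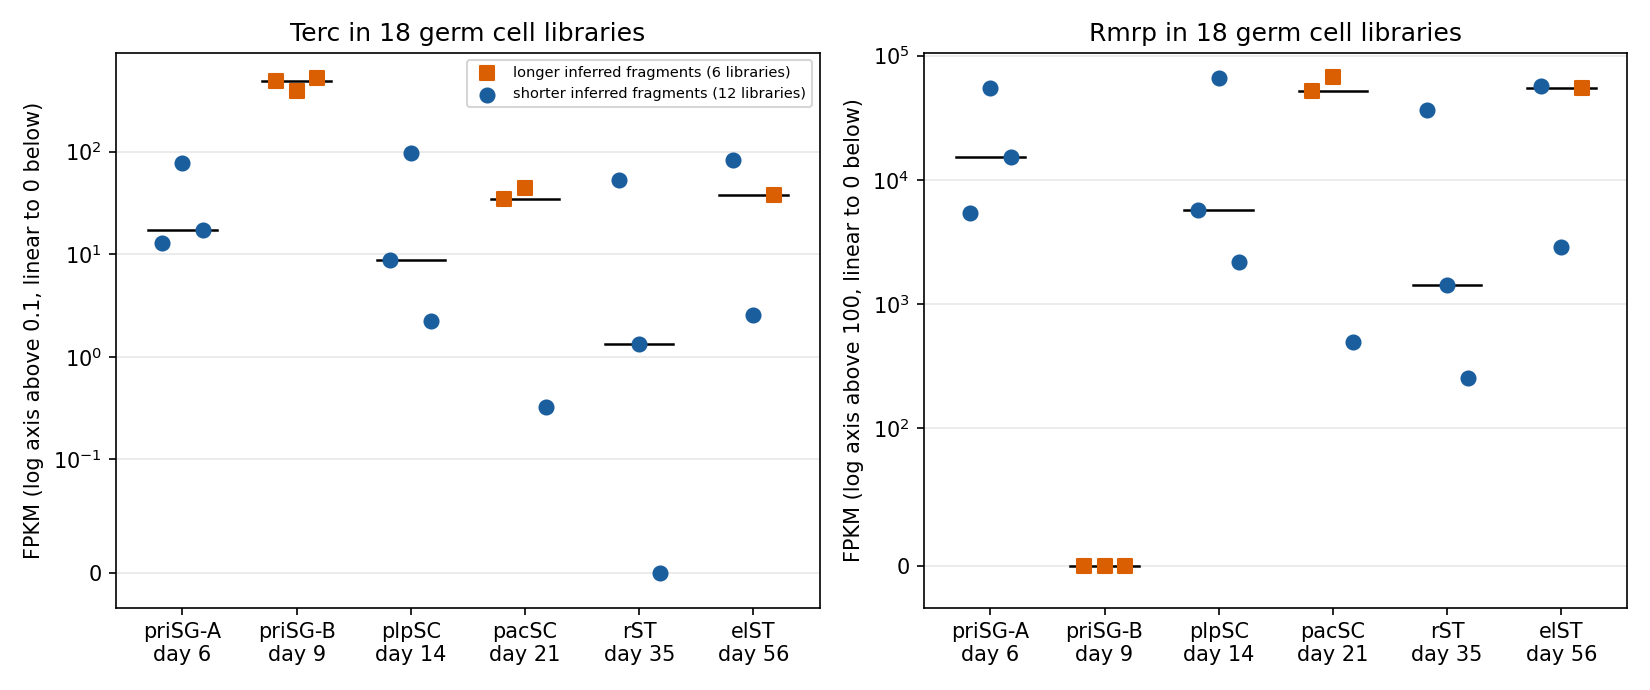
Terc (left) and Rmrp (right) in FPKM on a log axis that turns linear near 0, for the 6 types in order of age, with 1 point per library and a bar at the median. Terc in priSG-B lies between 392 and 524 FPKM, above all other libraries, whereas Rmrp is listed at 0 in those 3 libraries.

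The FPKM of a short locus depends strongly on fragment length. By the steps of its values, the table divides by an effective length, the number of places where a fragment can start in the locus, and for a locus of 281 bp this number is small. This reading comes from the values alone: the sources used here do not state the formula, and the tools they name do not account for it, so inferred fragments are estimates. For Rmrp it was estimated, from a normal distribution of fragment lengths, at 29.5 to 31.8 positions in the 3 libraries with longer fragments that detect Rmrp and at 73.9 to 85.4 in the 12 with shorter ones, so that 1 fragment adds more FPKM in the first set. On the scale of inferred fragments per 1000000 mapped, which leaves length out, Rmrp had 451, 4095 and 1127 in priSG-A, 471, 4952 and 168 in plpSC, and 1649, 1970 and 42.1 in pacSC. The same scale gave 2752, 107 and 20.3 fragments in rST and 4278, 211 and 1639 in elST. On this scale pacSC replicates 1 and 2 and elST replicate 3 no longer stood level with the highest libraries, while the low libraries stayed low. The first rank of Rmrp in these libraries, at 50.4, 53.9 and 50.5% of the summed FPKM, thus also depends on their small effective length. In plpSC replicate 2, with shorter fragments, it ranked first at 49.7%.

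The first comparison set priSG-B, at day 9, against priSG-A, at day 6. Rmrp is listed at 0 in 3 of 3 priSG-B libraries, against 5423, 54480 and 15181 FPKM in priSG-A, and the listed values passed the test (limma adjusted p = 0.00201 on the log2(FPKM + 1) scale). It was the single locus of the 4117 tested that was called lower, which makes 0.0243% of the loci. This call and the next one rest on the listed zeros, and whether they are an absence of fragments or a failed estimate was not tested. No fold is given against a group listed at 0. Terc had 491, 392 and 524 FPKM in priSG-B, against 12.8, 77.5 and 17.2 FPKM in priSG-A, and the groups did not overlap. That difference of 4.11 ± 1.70 on the log2(FPKM + 1) scale (SE) missed the threshold (limma adjusted p = 0.537). Of all loci tested, 0.656% were called higher in priSG-B, while without overlap 11.1% were higher there.

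The second comparison set plpSC, at day 14, against priSG-B and so uses the same priSG-B libraries. Rmrp had 5695, 65601 and 2188 FPKM in plpSC, against the 0 listed in each priSG-B library, and the listed values passed the test (limma adjusted p = 0.00250), again the single locus called in this direction (0.0243% of the loci). Terc had 8.83, 97.8 and 2.23 FPKM in plpSC, against 491, 392 and 524 FPKM in priSG-B, without overlap. The difference of -4.99 ± 1.70 (SE, log2 scale) did not pass either (limma adjusted p = 0.293). Of all loci, 1.24% were called lower in plpSC, and without overlap 10.9% were lower and 12.5% higher there.

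All priSG-B libraries belong to the set with longer fragments and all priSG-A and plpSC libraries to the other, so neither comparison has a value within 1 set. With a term for the set, which pacSC and elST alone can estimate, the Terc differences were 1.06 in priSG-B against priSG-A and -1.95 in plpSC against priSG-B. The calls of Rmrp were kept with that term, with limma adjusted p of 0.00573 and 0.00805. Its differences were then -18.5 and 17.7, against -14.0 and 13.2 without the term. These exceed the priSG-A and plpSC levels themselves, as the term moves priSG-B below its listed 0. The term also holds other differences between the libraries that estimate it, so type and set cannot be told apart with it. For 1700027A15Rik, longer against shorter fragments, these were 75.8 and 84.9 against 1195 FPKM in pacSC, and 73.0 against 0.570 and 875 FPKM in elST. Within the set of longer fragments, Terc averaged 469 FPKM in the 3 priSG-B libraries and 38.9 FPKM in the 3 others (34.8, 43.9 and 37.9 FPKM), a ratio of 12.1. The lowest priSG-B value was 8.93 times the highest of the 3 others. Rmrp is listed at 0 in priSG-B and stood at 51841, 66814 and 55398 FPKM in those 3 libraries of the same set.

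The 0 of Rmrp was set beside other loci, since an exact 0 in a table of FPKM can be a failed estimate. At the depth of priSG-B replicates 1, 2 and 3, 3 fragments of Rmrp would equal 0.851, 0.657 and 0.683 FPKM, the level that a count of 0 allows (counting error only). No other locus was at 0 in all 3 libraries of a type and at 1 FPKM or more in all 15 libraries of the other types. Gm28967 (chromosome 6, 125186361 to 125186641), chosen after its values were seen because it also is 281 bp long, held 2320, 1983 and 2579 FPKM in priSG-B and 225 to 4168 FPKM elsewhere. All its 281 bases lie in Scarna10, a small RNA gene of M21, and 235 of them in an exon of a Ncapd2 transcript. Without a record of strand, its reads cannot be told apart from theirs. Gm49569, the other locus of 281 bp, had 0 FPKM in each priSG-B library and 0 to 1.04 FPKM elsewhere. Of the 206 loci with 200 to under 300 bp of exon that were detected in any library, 67.0 to 72.8% were at 0 in the priSG-B libraries, against 33.5 to 75.7% in the other 15.

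**Figure D2:**
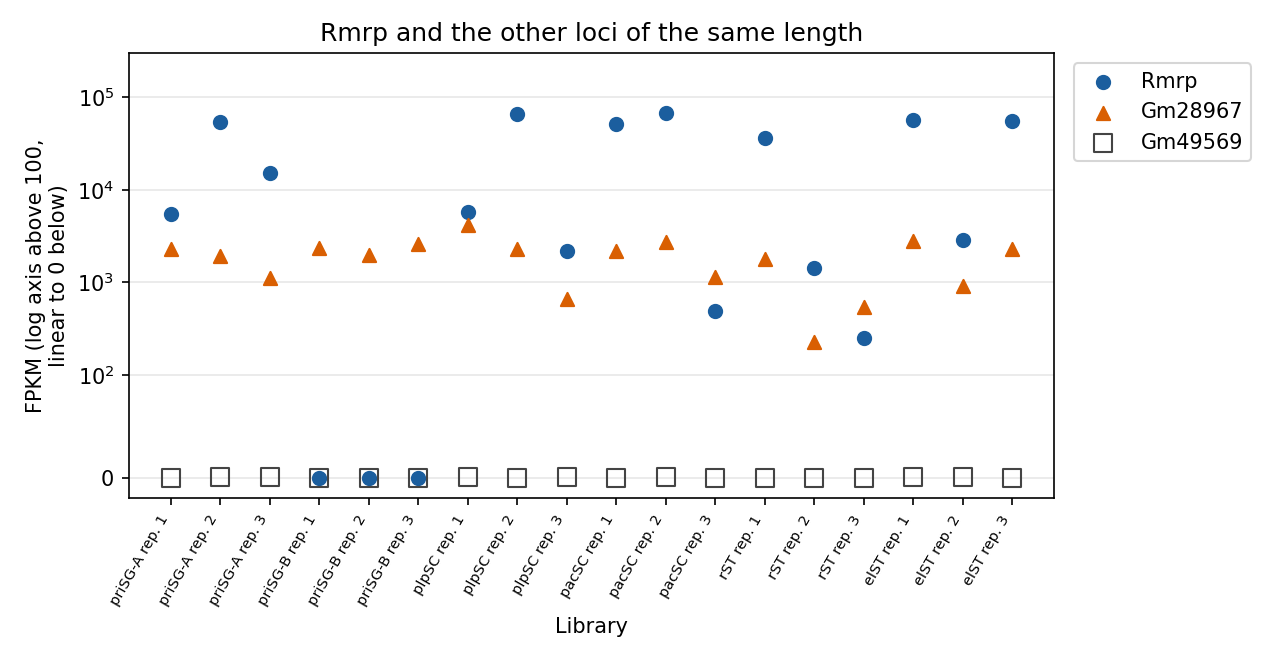
Rmrp (circles), Gm28967 (triangles) and Gm49569 (open squares), all 281 bp long, in FPKM on a log axis that turns linear below 100 FPKM, with 1 point of each per library. Gm28967 has 1983 to 2579 FPKM in the 3 priSG-B libraries, where Rmrp and Gm49569 are listed at 0, and Gm49569 stays at or below 1.04 FPKM throughout.

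The last 3 comparisons showed no called difference in either RNA, and limma called 0 loci in each, with 650, 372 and 78 loci at an unadjusted p under 0.05. In pacSC against plpSC the differences were -0.19 ± 1.70 for Terc and 0.35 ± 2.02 for Rmrp (SE, log2 scale; limma adjusted p = 0.940 and 0.902). In rST against pacSC they were -1.37 ± 1.70 and -2.34 ± 2.02 (limma adjusted p = 0.776 and 0.680). In elST against rST they were 2.18 ± 1.70 and 3.14 ± 2.02 (limma adjusted p = 0.882 for both). In each of these comparisons the libraries of the types overlapped for both genes. Without overlap, 5.39% of all loci were higher and 2.43% lower in pacSC than in plpSC, 0.632% higher and 11.7% lower in rST than in pacSC, and 4.25% higher and 0.243% lower in elST than in rST. The spread within a type was wide: the highest pacSC library was 137 times the lowest for Terc and 135 times for Rmrp, while Terc in priSG-B spanned 1.34 times.

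Over all 6 types at once, Rmrp passed the test with its listed zeros (limma F test, adjusted p = 0.00742) and Terc did not pass (limma adjusted p = 0.294), where 0.680% of the loci were called. The call of Rmrp was lost without priSG-B replicate 1, 2 or 3 (limma adjusted p = 0.125, 0.141 and 0.161). Its calls against priSG-A and in plpSC were kept when any single library was left out.

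The types were also pooled by the letters of their labels, with 6 libraries each for SG, SC and ST. Terc had a median of 21.8 FPKM in SC and 20.2 FPKM in ST, against 235 FPKM in SG. The SG median falls between priSG-A, at 12.8 to 77.5 FPKM, and priSG-B, at 392 to 524 FPKM. The priSG-A values lie within the ranges of SC (0.320 to 97.8 FPKM) and ST (0 to 83.0 FPKM), so only priSG-B stood above them. On the log2(FPKM + 1) scale the difference was -3.03 for SC against SG (exact permutation test, two-sided, p = 0.0584) and -3.40 for ST against SG (exact permutation p = 0.0476). Adjusted over the 6 tests of this kind both had p = 0.175 (exact permutation), and neither passed. At an exact permutation p under 0.05, 7.63% of all loci were lower and 16.5% higher in SC than in SG, 12.5% lower and 26.5% higher in ST than in SG, and 0.194% lower and 0.0243% higher in ST than in SC. Rmrp had medians of 28768 FPKM in SC and 19582 FPKM in ST, against 2712 FPKM in SG, where 3 libraries are listed at 0. Its differences from SG, 6.36 in SC and 5.77 in ST, gave exact permutation p of 0.110 and 0.130 (adjusted p = 0.195 for both). ST and SC differed by -0.37 for Terc and -0.59 for Rmrp (exact permutation p = 0.794 and 0.721, adjusted p = 0.794 for both).

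Terc and Rmrp varied together outside priSG-B. In the 14 libraries where both were above 0, Pearson's r was 0.97 and Spearman's rho 0.92 on the log2(FPKM + 1) scale, given as a description since both values of a point come from 1 library with its preparation, depth and cell content. Across these 14 libraries Terc spanned 305 times and Rmrp 135 times in FPKM, whereas the ratio of Rmrp to Terc lay between 422 and 1539, a span of 3.64 times. In priSG-A the ratio was 422, 703 and 882, in plpSC 645, 670 and 983, and in pacSC 1488, 1522 and 1539. It was 693 and 1074 in rST replicates 1 and 2 and 687, 1117 and 1461 in elST. The order of types depended on the scale. In inferred fragments, without the effective length, the ratio lay between 177 and 670 over the 14 libraries. It was then 345, 342 and 670 in pacSC and 274, 448 and 325 in elST, so that the pacSC replicates were no longer alike and elST replicate 3 stood below elST replicate 2. On that scale the ratio was 177, 282 and 355 in priSG-A, 273, 270 and 405 in plpSC, and 280 and 434 in rST replicates 1 and 2. Over all 18 libraries r was -0.29 and rho 0.12, with priSG-B holding the highest Terc and the Rmrp listed at 0.

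**Figure D3:**
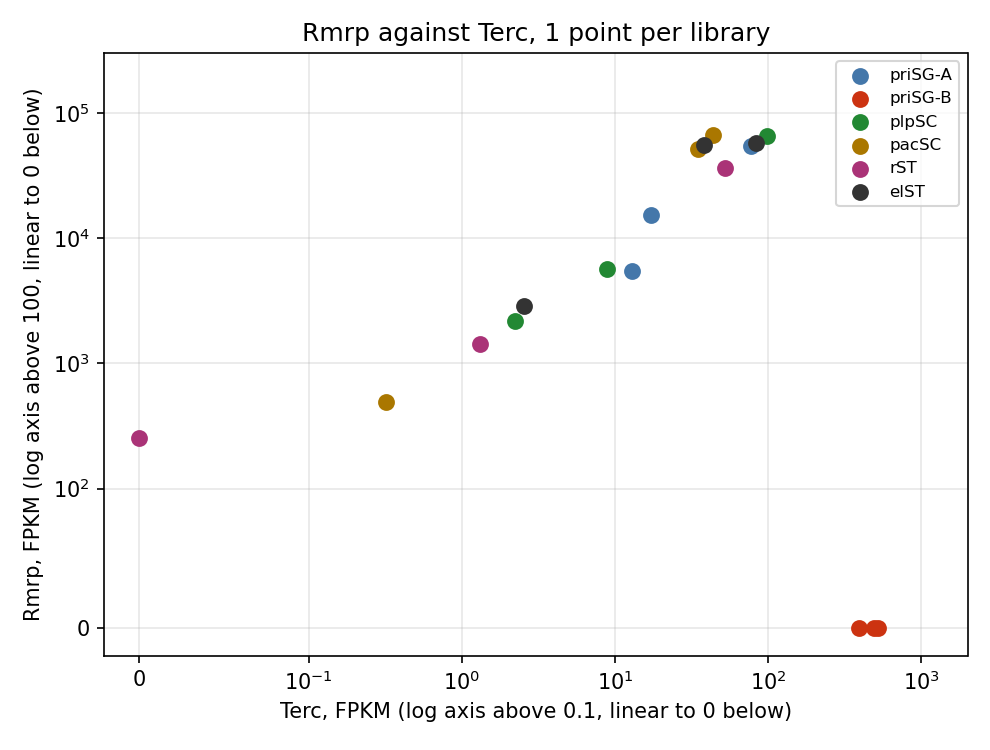
Rmrp against Terc in FPKM, both on log axes that turn linear near 0, with 1 point per library coloured by type. In the 14 libraries with both above 0 the ratio keeps within 422 to 1539, and the 3 priSG-B points lie apart at the right edge of the zero line.

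The libraries low in both RNAs were those high in the Tnp1-overlapping locus. The 5 libraries with the most 1700027A15Rik, at 874 to 4539 FPKM, were plpSC replicate 3, pacSC replicate 3, rST replicates 2 and 3 and elST replicate 2. They were also the 5 with the least Terc, at 0 to 2.55 FPKM, and the 5 with the least Rmrp above 0, at 253 to 2855 FPKM. In the 10 other libraries outside priSG-B, 1700027A15Rik stood at 0 to 84.9 FPKM, Terc at 8.83 to 97.8 FPKM and Rmrp at 5423 to 66814 FPKM. The part of spermatid RNA in these levels was not tested, and in bulk RNA fewer cells of a type and less RNA per cell cannot be told apart.

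**Figure D4:**
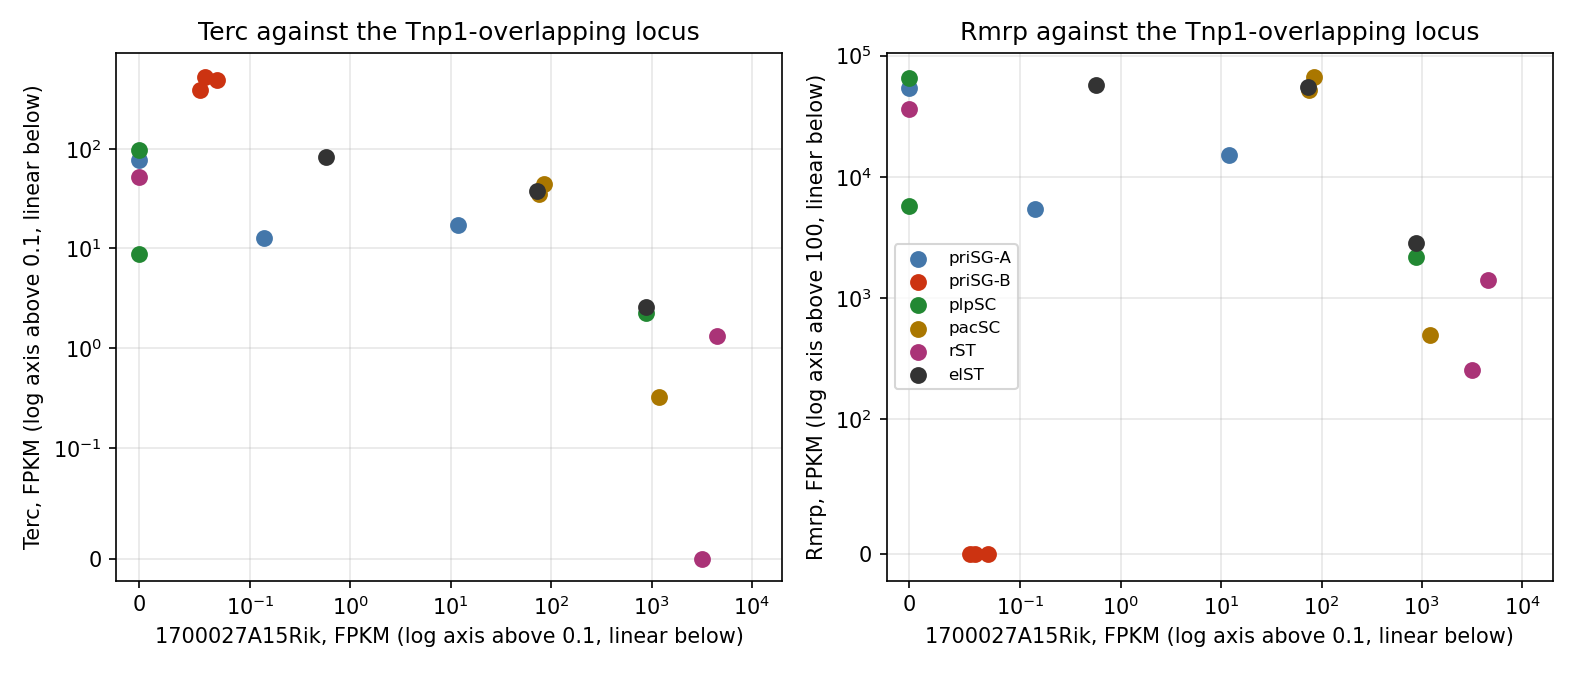
Terc (left) and Rmrp (right) against 1700027A15Rik, in FPKM on log axes that turn linear near 0, with 1 point per library coloured by type. The 5 libraries at 874 FPKM or more of 1700027A15Rik hold at most 2.55 FPKM of Terc and at most 2855 FPKM of Rmrp.

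Among the loci tested with a mean of at least 1 FPKM, the 5 whose pattern over the 18 libraries was most like that of Terc were Gm47870 (Pearson's r 0.98), D830050J10Rik (0.97), Sp3os (0.97), A230060F14Rik (0.96) and Rps18-ps4 (0.96). D830050J10Rik held 5.33, 5.22 and 5.42 FPKM in priSG-B, against 0.0928 to 4.26 FPKM in the other libraries, while Rps18-ps4 held 527.5 to 610.0 FPKM in priSG-B, above the level of Terc, against 73.2 to 389 FPKM elsewhere. All 5 loci, like Terc, stood higher in every priSG-B library than in any other, which choosing them by r over the same libraries favours. The 5 most like Rmrp were 1700026F02Rik (r 0.91), Gm36816 (0.78), Gm47408 (0.77), 4930470H14Rik (0.74) and Gm26672 (0.73). The closest, 1700026F02Rik, was also low in priSG-B, at 0.692, 4.21 and 3.19 FPKM, against 7.24 to 44.9 FPKM in the other libraries. The same choice favours this, and the locus was listed at 0 in none.

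The 15 telomerase and telomere proteins of the list, among them the reverse transcriptase Tert and the dyskerin gene Dkc1, have no value here. Neither have the 15 genes listed as RNase MRP and RNase P proteins or as neighbouring genes, among them Pop1 and Ccdc107. Apart from Ccdc107, the positions of the genes listed as neighbours were not checked. Of 15 other genes listed as short noncoding RNAs, Bc1 and Gm37357 had a row, and whether Gm37357 is short was not checked. Bc1, a brain RNA made by RNA polymerase III, is listed at 56.7 FPKM in priSG-B replicate 2 and at 0 in the 17 other libraries. A short locus can reach a high FPKM on few fragments, and the fragments behind this value were not inferred. It is therefore not read as expression in priSG-B. Gm37357 stood at 0.0281 to 0.347 FPKM. Levels of the enzymes' protein subunits were therefore not analysed here.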

How the data were processed

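The authors deposited 1 table with a column of FPKM for each library. GEO's design text mentions duplicates, but 3 libraries are numbered for each type. The submitters' processing notes name HISAT2, StringTie and mm10. Versions, annotation, strand setting, filters: not given in the sources used here. Per the labels' protocols, libraries were made from total RNA with the Illumina TruSeq RNA kit. Of the gene identifiers, 13191 matched GENCODE M21 and 27, Terc among them, did not.

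The 4117 loci that reached 1 FPKM in 3 or more libraries were tested as log2(FPKM + 1), which understates the change of low genes, with limma 3.58.1 (R 4.3.3; trend and robust estimation, all 18 libraries, two-sided, Benjamini-Hochberg over all loci, threshold 0.05). Classes of 6 libraries were compared by exact permutation in Python 3.11.15, with a smallest possible p of 0.0022.

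Depth and fragment length came from FPKM steps of single-exon loci over 800 bp: 97.9 to 99.3% of low values were whole within 0.02. The spread of fragment length came from shorter loci (90.2 to 100% whole within 0.1). Tests and the depth estimate were checked on simulated data. The members, lists and tests were chosen with earlier results of these data known. Named loci were the members, list genes in the table and the 5 most alike loci per member. Gm28967 was added after its values were seen. Replicate numbers are shared between types, with no label that says they mark an animal or batch. Deviations from type means were correlated above 0.1 for all 3 same-numbered pairs in pacSC against plpSC (0.307, 0.318 and 0.348). The same held in elST against rST (0.850, 0.817 and 0.132). Some differently numbered libraries were closer than the same-numbered ones (0.351 for pacSC 1 with plpSC 2, 0.855 for elST 2 with rST 3, 0.251 for elST 3 with rST 2). The numbers were therefore not shown to pair these libraries. In the other 3 comparisons not every pair passed, and r reached -0.321 in rST against pacSC. Alternatives were another pseudocount, no filter, quantile normalization, limma without trend and robust estimation, a replicate block, a term for library set, and leaving out each library. In the permutation tests the replicate number and the library set were strata, and libraries were permuted only within them.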

Additional observations from a re-analysis of the deposited data

Results flagged for a closer look

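The Rmrp level of priSG-A replicate 2, 54480 FPKM, stood far from the other 5 SG libraries, of which priSG-A replicates 1 and 3 held 5423 and 15181 FPKM and the 3 priSG-B libraries are listed at 0. Chance flags about 1 in 20 groups in this way. That rate holds for values drawn from 1 normal distribution, whereas this group pools 2 types and has 3 libraries listed at 0. The same library also held the highest Terc of priSG-A, at 77.5 FPKM.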

How the results depend on the processing

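The calls of Rmrp in priSG-B against priSG-A and in plpSC against priSG-B were kept in all 24 alternatives each (limma adjusted p 0.000508 to 0.0242 and 0.000347 to 0.0278), and Terc passed in none (lowest limma adjusted p 0.128, in plpSC against priSG-B without plpSC replicate 2, and 0.0662 for the F test without rST replicate 1). None of the alternatives could change the zeros listed for Rmrp, on which its kept calls rest, so they do not bear on whether those zeros are real. Leaving out a library of a type outside a comparison also left its difference as it was. The F of Rmrp, 14.99 with all libraries, ranged from 10.15 to 22.3 when single libraries were left out, and its call was lost when any 1 priSG-B library was left out. Differences that were never called changed sign, in log2 units. With single libraries left out, Terc in pacSC against plpSC ranged from -1.28 to 1.45, Rmrp in the same comparison from -0.89 to 2.65, Terc in ST against SC from -1.04 to 0.31 and Rmrp in ST against SC from -1.48 to 0.36. With a term for library set, Terc was at 0.67 and Rmrp at 0.66 in rST against pacSC, and Rmrp at -2.65 in pacSC against plpSC. For ST against SC the set entered otherwise, as a weighted mean of the differences within each set. Terc was then at 0.014 and Rmrp at 0.016. After quantile normalization Rmrp was at -0.18 in pacSC against plpSC. The cause was not tested.

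With the replicate block the Terc F was 3.96 (limma adjusted p 0.120), and the block changed no call of either RNA. In pacSC against plpSC, where every same-numbered pair passed 0.1, the differences with the block stayed at -0.19 for Terc and 0.35 for Rmrp (limma adjusted p 0.934 and 0.893). In elST against rST, where every such pair also passed, they stayed at 2.18 and 3.14 (limma adjusted p 0.737 for both). Depth limits the low Terc values, which rest on 2 to 20 fragments.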
